A study of Mus musculus with 2 samples.

Results

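The 9 genes described here encode the CD28 family of T cell receptors and the partners of its inhibitory members. They were taken by symbol from the deposited table, where each had 1 row, and are 9 of 54532 gene rows. They are Cd28 and Icos, which deliver costimulation, Ctla4, Pdcd1 (PD-1) and Btla, which restrain activation, the PD-1 ligands Cd274 (PD-L1) and Pdcd1lg2 (PD-L2), and Tnfrsf14 (HVEM) and Cd160, which share a binding network with Btla. RNA came from BDC-2.5 T cells, CD4 cells with a transgenic receptor from a diabetogenic clone of the NOD mouse, which had been activated and then given to NOD.scid recipients, hosts without T or B cells of their own that keep NK and myeloid cells. In the 2.5HIP-PLG group, polymer nanoparticles with a hybrid insulin peptide (2.5HIP-PLG) were injected into a vein at a dose of 1.75 mg, 1 day after the cells, and the Untreated group is labelled as having had no treatment. Cells of both groups were sorted at day 6 from spleen and lymph nodes as CD4-positive and negative for a green fluorescent Foxp3 reporter, and 4 mice were pooled per group. The labels give neither the age nor the sex of the mice. The submitters compared the groups to look for ways in which tolerance arises in these cells.

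A T cell needs a second signal beside its antigen receptor, and the CD28 family supplies or withholds it. CD28 binds CD80 and CD86 on antigen-presenting cells and recruits phosphatidylinositol 3-kinase, and CTLA-4 binds the same ligands more tightly and keeps them from CD28. PD-1 recruits the phosphatase SHP-2 when it meets PD-L1 or PD-L2 and so dampens signalling from the antigen receptor and CD28, and BTLA does so through HVEM. PD-1 and CTLA-4 are known for holding autoreactive T cells in check in the NOD mouse.

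Each group is a single library, so the differences below could not be set against replicates and carry no p-value. Total counts were 22580648 for 2.5HIP-PLG and 26036623 for Untreated. Levels are given as CPM, counts scaled by the library total to parts per 1000000, in which a single count was worth 0.0443 and 0.0384 CPM. Each ratio is the CPM of 2.5HIP-PLG over that of Untreated with an exact 95% interval, which covers counting error only, neither mice nor library preparation. The words called higher or called lower are kept for a ratio of at least 1.5 in that direction whose interval leaves out 1. Genes with a count sum of at least 20, 13902 in all, are the measured ones. The labelled cell type matched its markers, with Cd4 at 1849 and 1526 CPM, Trac at 1077 and 831 CPM and Cd3e at 1043 and 772 CPM for 2.5HIP-PLG and Untreated. Of 8 listed CD4 T cell markers 0 were called, although their median log2 ratio was 0.33.

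All 9 genes were measured, 5 were called higher in the 2.5HIP-PLG library (Pdcd1, Ctla4, Cd160, Btla and Pdcd1lg2), 0 were called lower and 4 were neither (Icos, Cd28, Tnfrsf14 and Cd274). Among all measured genes 5.15% were called higher and 9.7% lower, and among the 11813 protein-coding ones, to which all 9 belong, 5.11% and 7.89%. The median log2 ratio of the 9 genes was 0.97, against -0.01 over all measured genes, whose 5th and 95th percentiles lay at -1.14 and 0.72. Their summed level was 1129 CPM after 2.5HIP-PLG and 639.98 CPM without. In RNA from pooled cells, more cells that carry a transcript and more of it per cell cannot be told apart. The deposited counts of all 9 genes were exact whole numbers in both libraries.

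**Figure D1:**
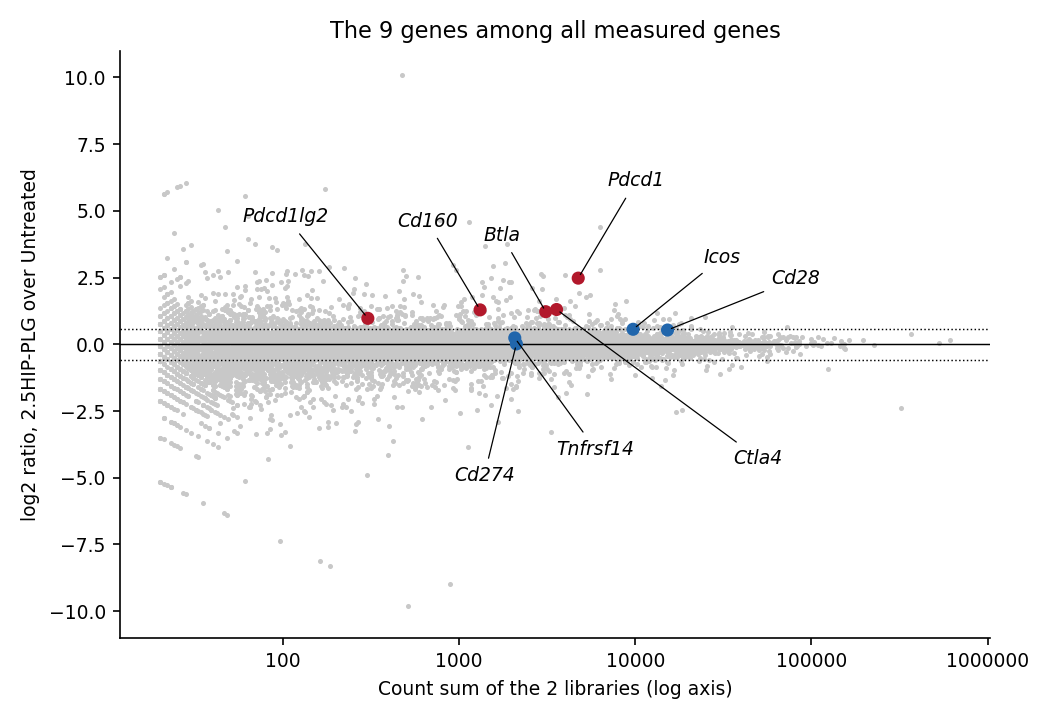
Log2 ratio of 2.5HIP-PLG over Untreated (vertical axis, log2, 0.5 counts added) against the count sum of both libraries (horizontal log axis) for the 13902 measured genes in grey. Red points are the 5 genes of the CD28 and PD-1 group called higher, blue points the 4 called neither, and dotted lines mark a ratio of 1.5 in either direction. Pdcd1 lies above nearly all genes with similar counts, and the 4 blue points lie inside the band, Icos and Cd28 near its upper edge.

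The stretches upstream of the start sites are shown for 4 of the 5 genes called higher, since these genes were higher together. They come from RefSeq on GRCm38.p6, which matched 7 of the 9 symbols (Cd28 and Icos are missing), and run 5′ to 3′ on the gene's strand up to the start site or the first annotated exon base. Capitals mark GGAAA on either strand (TTTCC on the other), the core that NFAT factors bind. The Ctla4 start lies inside the GENCODE gene, whose span begins further upstream, and Cd160, the fifth gene, has 2 listed starts that counts per gene do not separate.
Pdcd1, chr1:94052554-94052803, minus strand: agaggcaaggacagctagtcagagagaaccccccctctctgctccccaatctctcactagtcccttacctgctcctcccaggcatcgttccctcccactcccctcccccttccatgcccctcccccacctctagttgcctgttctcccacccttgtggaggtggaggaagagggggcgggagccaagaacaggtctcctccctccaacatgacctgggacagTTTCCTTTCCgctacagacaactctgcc
Ctla4, chr1:60908775-60909024, plus strand: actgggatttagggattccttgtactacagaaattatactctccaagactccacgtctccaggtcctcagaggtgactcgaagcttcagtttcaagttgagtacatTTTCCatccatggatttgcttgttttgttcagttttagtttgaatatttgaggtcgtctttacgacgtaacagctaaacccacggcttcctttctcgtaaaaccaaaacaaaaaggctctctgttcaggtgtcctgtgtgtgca
Btla, chr16:45224087-45224314, plus strand: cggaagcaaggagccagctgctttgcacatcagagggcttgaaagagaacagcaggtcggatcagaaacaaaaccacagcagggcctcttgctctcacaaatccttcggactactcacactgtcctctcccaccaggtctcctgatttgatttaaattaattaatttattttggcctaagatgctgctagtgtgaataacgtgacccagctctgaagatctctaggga
Pdcd1lg2, chr19:29410669-29410918, plus strand: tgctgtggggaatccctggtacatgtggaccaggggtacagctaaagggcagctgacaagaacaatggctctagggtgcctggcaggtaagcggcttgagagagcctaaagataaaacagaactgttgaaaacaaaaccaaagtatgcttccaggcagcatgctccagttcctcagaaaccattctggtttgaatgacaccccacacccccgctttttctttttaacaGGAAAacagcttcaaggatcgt

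The Pdcd1 stretch held 2 of these cores, 28 and 23 bases before the start site, Pdcd1lg2 held 1 at 22 bases and Ctla4 held 1 at 144 bases, while Btla held none. Over the full windows of 300 bases (250 before and 50 after the start), 6 of the 8 start regions of the 7 genes held the core, counting both start sites of Cd160. Cd274 and Tnfrsf14, which were not called, held 2 cores each, while Btla and 1 start of Cd160, both called higher, held none. Of all 32851 promoter windows of that length 61.3% held it, so it is a common match. The AP-1 motif TGANTCA, which reads the same on both strands, was found in 0 of the 8 and in 7.81% of all windows. The forkhead motif GTAAACA, searched on both strands, was found in 0 of the 8 and in 3.65% of all. A match in these letters is a description of the sequence, and binding was not measured.

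Pdcd1, the inhibitory receptor PD-1, stood apart from the other 8 genes. It had 3928 counts (174 CPM, 95% interval 169 to 179) after 2.5HIP-PLG against 812 (31.2 CPM, 29.1 to 33.4) in Untreated. The 2.5HIP-PLG library was the high one and the intervals do not overlap, with a ratio of 5.58 (5.17 to 6.02). The gene (ENSMUSG00000026285) lies on the minus strand of chromosome 1, from 94038305 to 94052553, and overlaps no other annotated gene. By ratio it ranked 73 of 13902 measured genes. Of the 2347 genes with at least as many counts, 2 had a higher ratio, named here after their values were seen. They are Lag3, an inhibitory receptor for MHC class II, with 5946 and 329 counts (20.8, 18.6 to 23.4), and Tox, with 5400 and 911 (6.83, 6.37 to 7.34).

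Ctla4, which encodes the inhibitory rival of CD28, had 2434 counts (108 CPM, 104 to 112) after 2.5HIP-PLG and 1137 counts (43.7 CPM, 41.2 to 46.3) without treatment. Its ratio was 2.47 (2.30 to 2.65), and 13 of the 3093 genes with at least as many counts, Ctla4 included, reached that ratio. The gene lies on chromosome 1 from 60887000 to 60915832, between Cd28, which ends 114 kb before it, and Icos, which starts 62.1 kb after it. A pseudogene inside it, Rpl18-ps1, held only 6 and 7 counts. GENCODE lists 3 transcripts for Ctla4, and the deposited counts are per gene, so its membrane and soluble forms are not separated.

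The costimulatory neighbours on the same stretch of chromosome 1 differed less between the libraries. Cd28 had 8484 counts (376 CPM, 368 to 384) after 2.5HIP-PLG and 6752 (259 CPM, 253 to 266) without. Icos, whose product supports follicular helper cells and interleukin 10 production, had 5453 counts (241 CPM, 235 to 248) and 4256 (163 CPM, 159 to 168). Their ratios were close, 1.45 (1.40 to 1.496) for Cd28 and 1.48 (1.42 to 1.54) for Icos. Both are higher by more than counting error and fall just short of the size used for a call, and the interval of Icos holds 1.5. Gm37039, which overlaps Icos on the same strand by 2485 bases, held 12 and 21 counts.

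Btla, the receptor that HVEM engages to inhibit T cells, had 2074 counts (91.8 CPM, 87.9 to 95.9) after 2.5HIP-PLG and 1025 (39.4 CPM, 37.0 to 41.9) without, a ratio of 2.33 (2.16 to 2.52; chromosome 16, 45224315 to 45257670). Cd160, another receptor for HVEM, carried by NK cells and some T cells, had 893 counts (39.5 CPM, 37.0 to 42.2) and 421 (16.2 CPM, 14.7 to 17.8). Its ratio was 2.45 (2.18 to 2.75; chromosome 3, 96798763 to 96829351). Its first bases overlap Pdzk1 on the other strand by 68 bases, and Pdzk1 as a whole held 37 and 33 counts. Tnfrsf14, the HVEM gene they have in common, had 1046 counts (46.3 CPM, 43.6 to 49.2) and 1022 (39.3 CPM, 36.9 to 41.7). At 1.18 (1.08 to 1.29; chromosome 4, 154921933 to 154928563) it was not called, so both receptors were higher while their shared partner differed little.

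The genes of the PD-1 ligands parted as well, although they are neighbours 22.8 kb from each other on chromosome 19. Cd274, encoding PD-L1, had 986 counts (43.7 CPM, 41.0 to 46.5) after 2.5HIP-PLG and 1126 (43.2 CPM, 40.8 to 45.8) without, a ratio of 1.01 (0.926 to 1.10; 29367455 to 29388095). Its intervals in the libraries overlap, and at this depth a difference within the interval of the ratio could not be seen. AC119228.1 overlaps Cd274 on the other strand by 11055 bases, and the deposited counts hold no row for it. Pdcd1lg2, encoding PD-L2, was the scarcest of the 9 genes, with 191 counts (8.46 CPM, 7.30 to 9.75) and 112 (4.30 CPM, 3.54 to 5.18). Its ratio of 1.97 (1.55 to 2.51; 29410919 to 29471161) rests on the fewest counts and is the only call among the 9 that is lost when a ratio of 2 is required. Its end overlaps A930007I19Rik on the other strand, which held 3 and 21 counts.

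**Figure D2:**
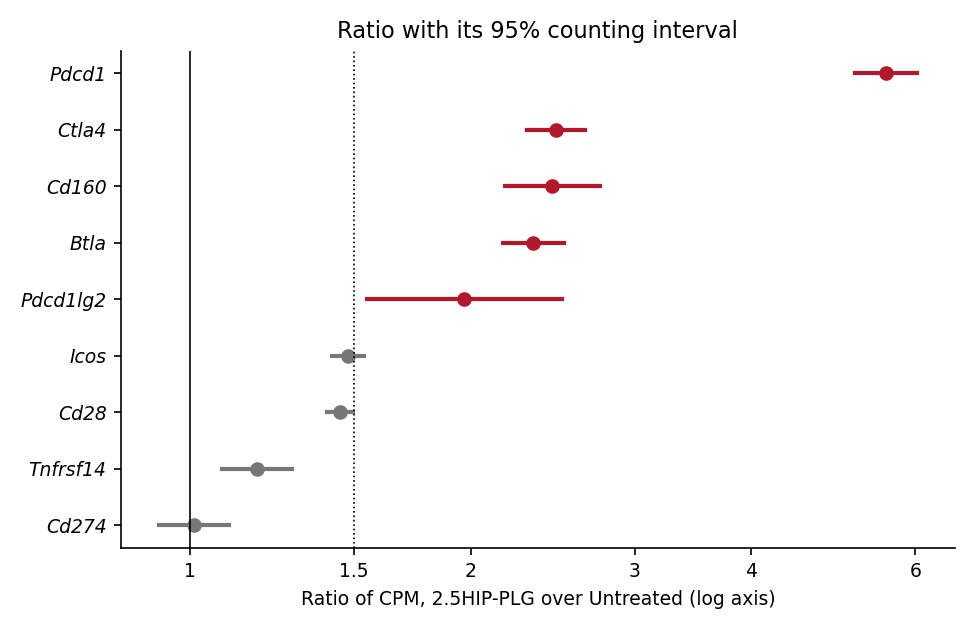
Ratio of CPM, 2.5HIP-PLG over Untreated (horizontal log axis), for each of the 9 genes with 1 library per group; points are ratios, bars their exact 95% counting intervals, the solid line a ratio of 1 and the dotted line 1.5. Red marks genes called higher. Pdcd1 at 5.58 is separate from the next, Ctla4 at 2.47, while Ctla4, Cd160, Btla and Pdcd1lg2 have overlapping intervals.

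The interval of the ratio lay above 1 for 8 of the 9 genes, all but Cd274, as it did for 24.3% of all measured genes. The intervals sort the 9 ratios into steps. That of Pdcd1 overlaps no other. Ctla4, Cd160, Btla and Pdcd1lg2 overlap in a second step. Icos and Cd28 overlap each other and lie below Ctla4, Cd160, Btla and Pdcd1lg2. Tnfrsf14 and Cd274, at the bottom, overlap each other too. By role, the 3 inhibitory receptors of the CD28 family and Cd160 were called higher. Neither costimulatory receptor was, although Cd28 at 1.45 and Icos at 1.48 lay just below the ratio of 1.5 needed for a call.

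Ratios of 2 genes within a library do not depend on how libraries are scaled, and gene length cancels when they are compared between libraries; 7 pairs were computed. Counts of Ctla4 per count of Cd28 were 0.287 after 2.5HIP-PLG and 0.168 without, a quotient of 1.70 (1.58 to 1.84, conditional exact 95% interval for counting error). For Pdcd1 over Cd28 the values were 0.463 and 0.12026, a quotient of 3.85 (3.54 to 4.18). The balance therefore lay further towards both inhibitory genes in the 2.5HIP-PLG library. Icos over Cd28 barely moved, at 0.643 and 0.630 with a quotient of 1.02 (0.968 to 1.07). Btla over Tnfrsf14 was 1.98 and 1.003 (quotient 1.98, 1.76 to 2.22). Pdcd1lg2 over Cd274 was 0.194 and 0.0995 (1.95, 1.51 to 2.52), so PD-L2 transcripts stayed far fewer than those of PD-L1 in both libraries by count. Pdcd1 over Cd3e, a subunit gene of the T cell receptor complex, was 0.167 and 0.0404 (4.13, 3.82 to 4.47). The seventh pair, Ctla4 over Foxp3, went the other way, at 2.10 and 2.92 (0.7197, 0.627 to 0.825).

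**Figure D3:**
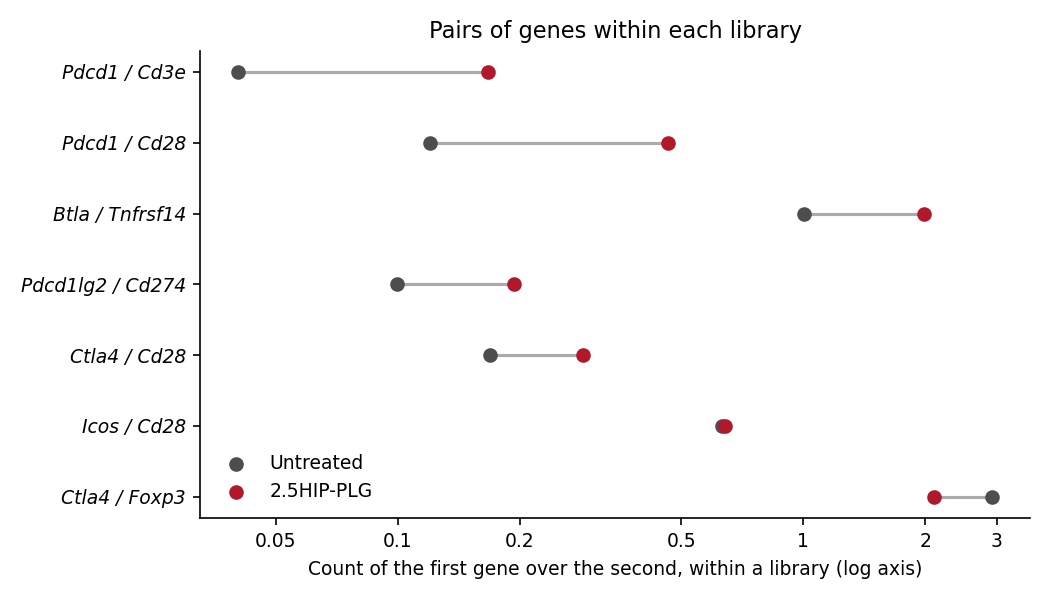
Count of the first gene over that of the second within each library (horizontal log axis) for 7 pairs, with grey points for Untreated, red points for 2.5HIP-PLG and a line joining the 2 libraries. Pdcd1 over Cd28 moves from 0.12026 to 0.463, Icos over Cd28 stays near 0.630, and Ctla4 over Foxp3 is lower after 2.5HIP-PLG.

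Levels of different genes were compared as CPM per kilobase of annotated exon. In the Untreated library Icos (47.7) and Cd28 (42.4) stood highest, followed by Tnfrsf14 (27.3), Ctla4 (18.7), Pdcd1 (16.2), Cd274 (11.9), Btla (11.6), Cd160 (6.12) and Pdcd1lg2 (2.19). In the 2.5HIP-PLG library Pdcd1 (90.1) stood first, followed by Icos (70.4), Cd28 (61.4), Ctla4 (46.3), Tnfrsf14 (32.2), Btla (27.0), Cd160 (15.0), Cd274 (12.1) and Pdcd1lg2 (4.31). On this per-kilobase scale Pdcd1 moved from place 5 to place 1, and Cd274 from place 6 to place 8. In Untreated the neighbours Cd274 and Btla do not differ beyond counting error, and with the longest transcript as length they trade places, as do Icos and Cd28 in both libraries.

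**Figure D4:**
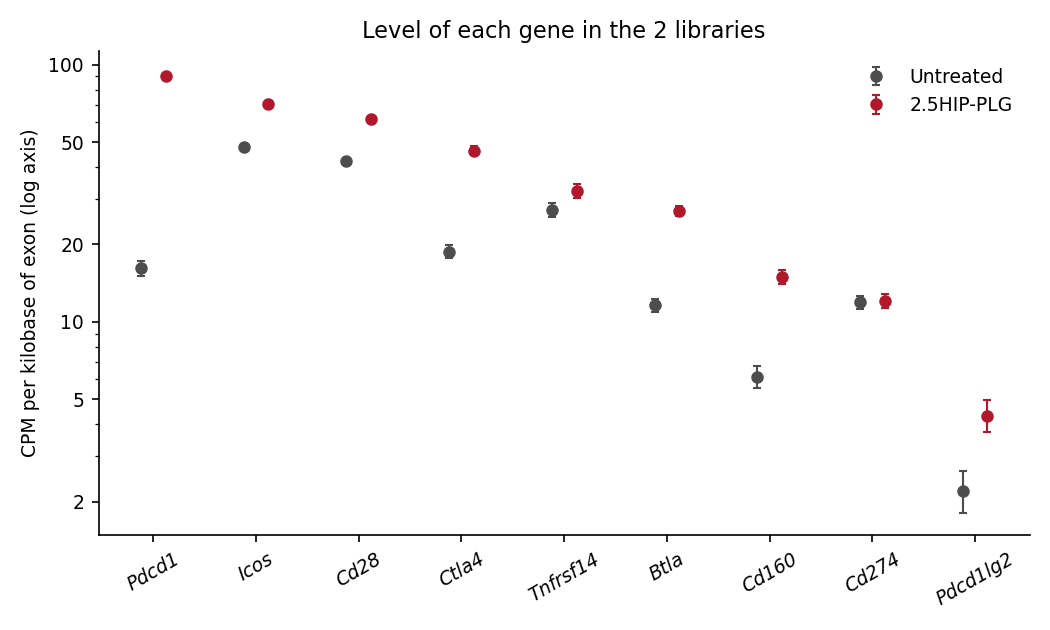
Level of each gene in CPM per kilobase of annotated exon (vertical log axis) in the Untreated (grey) and 2.5HIP-PLG (red) libraries, 1 library each, with exact 95% Poisson bars for counting error. Genes are ordered by their level after 2.5HIP-PLG; Pdcd1 goes from 16.2 to 90.1, and Cd274 is at 11.9 and 12.1.

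Among other ligands and partners of these receptors, 1 of 9 measured genes was higher, 3 were lower and 5 neither (median log2 ratio -0.29). Of all measured genes, 5.15% were called higher and 9.7% lower. Tnfsf14, encoding LIGHT, another ligand of HVEM, had 1784 and 1243 counts in 2.5HIP-PLG and Untreated (1.65, 1.54 to 1.78). Lta, a further ligand of HVEM, had 352 and 683 counts (1.68-fold lower, 1.48 to 1.92), and Icosl, the ligand of ICOS, had 350 and 693 (1.72-fold lower, 1.51 to 1.96). Rgmb, which binds PD-L2, had 34 and 99 counts (2.53-fold lower, 1.69 to 3.85). The most abundant were Ltb, a lymphotoxin subunit (393 and 354 CPM), and Vsir, encoding the inhibitory protein VISTA (282 and 372 CPM), and neither was called. Cd80 had 362 and 326 counts and Cd86 had 90 and 127, whereas Vtcn1 had 0 in both libraries, which allows up to 0.133 and 0.115 CPM.

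Of 9 listed phosphatase and adaptor genes of T cell signalling, 2 were higher, 1 lower and 6 neither (median log2 ratio 0.21). The shares over all measured genes were 5.15% higher and 9.7% lower. Ptpn11, which encodes SHP-2, the phosphatase that PD-1 recruits, had 8830 counts after 2.5HIP-PLG and 4513 without (391 and 173 CPM; 2.26, 2.18 to 2.34). Sh2d1a, encoding the adaptor SAP, had 1584 and 1202 (1.52, 1.41 to 1.64), and part of these counts was fractional before rounding. Pag1, a membrane anchor for the kinase CSK, had 1545 and 3257 counts (1.83-fold lower, 1.72 to 1.94). Ptpn6, encoding SHP-1, had 10411 and 8182 counts (1.47, 1.43 to 1.51) and Csk had 12277 and 11378 (1.24, 1.21 to 1.28), and both were neither.

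Of 17 genes that carry the signal of CD28 and ICOS, 0 were higher, 1 was lower and 16 were neither, with a median log2 ratio of -0.08. Those counts are near the shares over all measured genes, 5.15% higher and 9.7% lower. The lower one was Grap2, encoding the adaptor GADS, with 6340 and 12168 counts (1.66-fold, 1.61 to 1.72). The most abundant were the kinase genes Lck (1174 and 1147 CPM; 1.02, 1.01 to 1.04) and Pik3cd (660 and 734 CPM; 0.899, 0.8798 to 0.918).

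Of 12 genes that govern the traffic and turnover of these receptors, 0 were higher, 1 was lower and 11 were neither (median log2 ratio -0.09), again near the shares over all measured genes. The lower one was Trat1, an adaptor known to help carry CTLA-4 to the cell surface, at 173 against 1495 counts in Untreated (7.49-fold lower, 6.40 to 8.82). Ap2m1, a subunit of the adaptor that takes CTLA-4 back into the cell, had 7286 and 7423 counts (1.13, 1.10 to 1.17), and Def6 had 5941 and 7172 (0.955, 0.923 to 0.989).

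Transcription factors known to act at Pdcd1 split, with 2 of 12 higher, 2 lower and 8 neither (median log2 ratio -0.01). Beside Tox, the NFAT factor Nfatc1 was higher, with 15800 and 8931 counts (2.04, 1.99 to 2.09). Nfatc2, another NFAT factor on the list, leaned the other way, with 4494 and 6397 counts (0.810, 0.780 to 0.842), and was neither. Satb1, a chromatin organiser, had 4598 and 11819 counts (2.23-fold lower, 2.15 to 2.31), and the AP-1 subunit Jun had 4027 and 8443 (1.82-fold lower, 1.75 to 1.89). The part of any of these factors in the ratio of Pdcd1 was not tested. The counts of Satb1 and Jun were not whole. Over the 59 measured genes of the 5 lists, 5 were higher and 8 lower, which is 8.47% and 13.6%, beside 5.15% and 9.7% of all measured genes. The lists were drawn up with earlier results of these libraries known, so their counts are descriptions.

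**Figure D5:**
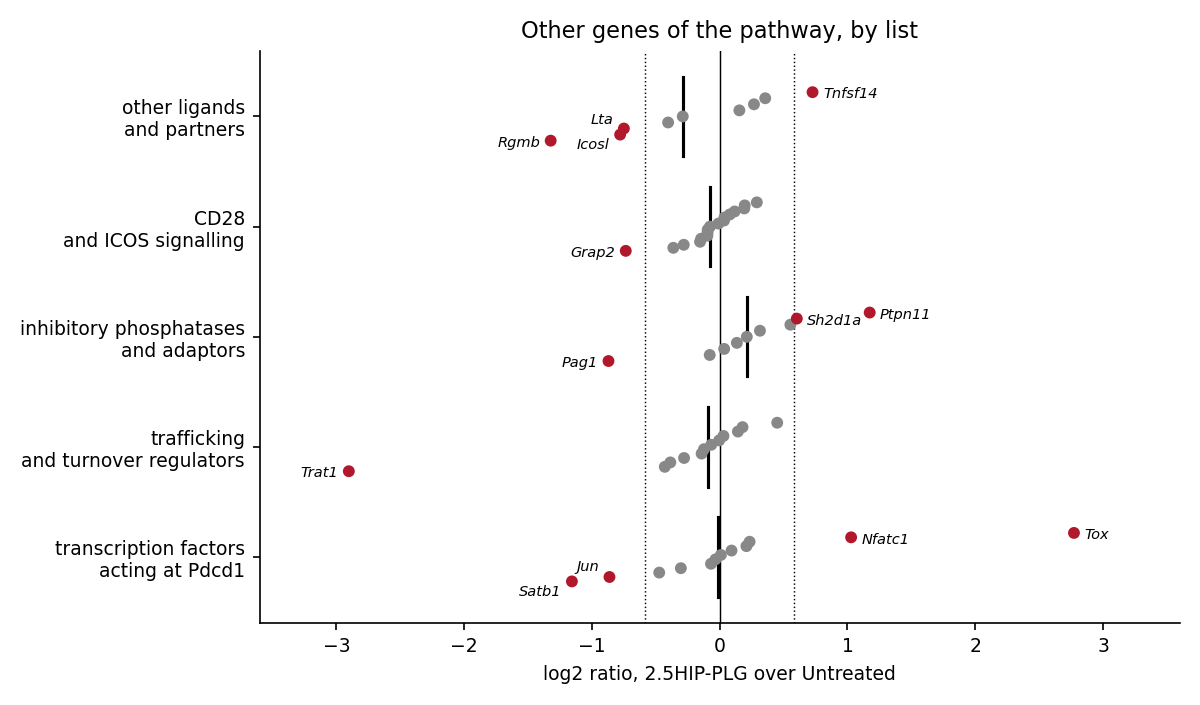
Log2 ratio of 2.5HIP-PLG over Untreated (horizontal axis) for the 59 measured genes of 5 lists of other pathway genes, 1 point per gene, spread vertically for legibility. Red points with names are called higher or lower, black bars are list medians and dotted lines mark a ratio of 1.5 in either direction; Trat1 lies farthest to the left and Tox farthest to the right.

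Regulatory T cells carry much Ctla4 and Icos, and some of their markers moved with these genes in cells sorted as Foxp3-reporter negative. Of 6 listed markers, 4 were higher and 2 neither, beside 5.15% of all measured genes called higher. None was at 0, and their summed level was 228 CPM after 2.5HIP-PLG and 165 CPM without. Foxp3 itself had 1157 and 389 counts (3.43, 3.05 to 3.86) and Ikzf2 had 1310 and 741 (2.04, 1.86 to 2.23). For both genes part of these counts was fractional before rounding. Gpr83 and Itgb8, the other 2, had at most 37 counts in a library, whereas the abundant members Il2ra and Tnfrsf18 were neither. Il2ra leaned the other way, with 812 and 1358 counts (0.689, 0.631 to 0.753), and Tnfrsf18 had 1806 and 1778 (1.17, 1.10 to 1.25). The part of regulatory T cells in the ratios of Ctla4, Icos and Pdcd1 was not tested.

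Markers of other cells that could carry these transcripts were read in the same libraries, where 5.15% of all measured genes were called higher and 9.7% lower. Of 8 dendritic cell markers, 1 was lower, 0 were higher and 6 neither, with a summed level of 70.7 CPM after 2.5HIP-PLG and 99.01 CPM without. Cd74 (1042 and 1541 counts), Itgax (108 and 320; 2.57-fold lower, 2.06 to 3.23) and H2-Aa (173 and 264) were the most abundant. Of 8 macrophage and monocyte markers, 2 were higher and 4 neither, with 23.5 and 22.4 CPM in all. Itgam (219 and 325 counts), Cd68 (107 and 96) and Lyz2 (101 and 47; 2.48, 1.74 to 3.58) led that list, and Fcgr1 was at 0 after 2.5HIP-PLG. Pdcd1lg2 summed to fewer counts than Itgam or Cd74, and the part of such cells in its ratio was not tested. NK cell markers, given beside Cd160, had 1 of 6 higher and 3 lower, with 159 CPM after 2.5HIP-PLG and 648 CPM without, most of it Gzma (2528 and 15968 counts), which T cells also make. Eomes, also found in T cells, had 735 and 360 counts (2.35, 2.07 to 2.68), and Klre1 had 211 and 308. Of 2 CD8 T cell markers, Cd8a had 0 and 9 counts and Cd8b1 304 and 272 (1.29, 1.09 to 1.52). Of 7 B cell markers, which bear on Btla, only Cd22 was measured (389 and 228 counts; 1.97, 1.67 to 2.33), Ms4a1 was at 0 in both libraries, and Cd79b (5 and 12) and Pax5 (1 and 6) came next. Of 5 stromal and endothelial markers, 2 were higher and 2 neither, with 130.2 and 101.1 CPM in all, nearly all from Pecam1 (2850 and 2573 counts), beside Pdgfrb (34 and 39) and Col1a1 (39 and 14). The part of NK, CD8, B and stromal cells was not tested.

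Most T cell identity genes themselves leaned to the 2.5HIP-PLG library, but Lat went the other way, with 8587 and 12271 counts (0.807, 0.785 to 0.830). The ratios were therefore also taken relative to the summed counts of the 8 listed ones, Lat included, a scaling chosen after seeing the data. It lowered the median log2 ratio of all measured genes to -0.29. The same 5 genes stayed called, Pdcd1 at 4.60, Ctla4 at 2.03, Cd160 at 2.02, Btla at 1.92 and Pdcd1lg2 at 1.62. Cd28 then stood at 1.19 and Icos at 1.22, while Tnfrsf14 at 0.973 and Cd274 at 0.832 turned below 1. Among the other pathway genes Tnfsf14 and Sh2d1a lost their calls, and over all genes 394 were higher and 2646 lower, against 716 and 1348 by library total.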

How the data were processed

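RNA-seq libraries, 1 per group, were made from total RNA with a NuGen mRNA kit, per the labels' protocols. The submitters' processing notes name STAR, RSEM 1.3.1 and the build GRCm38. How strand was used, which annotation was counted and what was filtered is not given in the sources used here, so a gene and one that overlaps it on the other strand may share reads. The deposited values are expected counts for each gene, without scaling between libraries, and 11.1% and 11.8% of rows were not whole. Cd3e, Ptpn6, Ap2m1, Def6, Itgax and Lyz2 were among the genes with a fractional count. Groups follow the treatment label, because the protocol field describes an injection for both samples.

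Counts were rounded and divided by the library total, and ratios got Clopper-Pearson (conditional binomial) intervals in Python 3.11.15 with scipy 1.17.1, numpy 2.4.6 and pandas 2.3.3. With a single library in each group no test over samples could be made. Pairs of genes got conditional exact intervals. No molecular identifiers are described, so intervals cover counting error only, as does the floor of 3 counts behind a 0. Medians use log2 ratios with 0.5 counts added. Exon lengths, positions and overlaps came from GENCODE M21, which holds 54495 of 54532 row IDs. Alternative scalings were TMM and upper quartile (edgeR 4.0.16) and DESeq2 1.42.0 median of ratios, in R 4.3.3, and the total without the 20 most abundant genes, in Python. Figures were drawn with matplotlib 3.10.9.

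The 9 members, the lists and the settings were chosen with earlier results of these data known. The text names all members, the called and the 2 most abundant genes of each pathway list, and the 3 most abundant of each marker list. Cd80, Cd86, Vtcn1, Lag3, Foxp3, Gpr83, Itgb8, Ms4a1, Fcgr1, Lat and Nfatc2 were added outside that rule, some after their values were seen.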

Additional observations from a re-analysis of the deposited data

How the results depend on the processing

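The 5 calls among the CD28 and PD-1 genes held under TMM, upper quartile, median-of-ratios and trimmed-total scaling, unrounded counts, no count minimum, a count sum of at least 100 and a 99% interval, and Pdcd1 stayed between 5.52 and 5.63 under those scalings. With a ratio of 2, 4 of the 5 were called, without Pdcd1lg2, and over all genes 387 were higher and 808 lower, with 3 higher and 3 lower among the other pathway genes. With a count sum of at least 100, 473 genes were higher and 748 lower. Relative to the CD4 T cell markers, 394 genes were higher and 2646 lower, with 3 higher and 13 lower among the other pathway genes. Fewer genes pass a ratio of 2 or a count sum of at least 100 by construction, which does not hold for the marker scaling. Cd274 crossed 1 with upper quartile scaling, at 0.999. No paired analysis was possible because each group has 1 library. Depth limits Pdcd1lg2 most, with 303 counts in all.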
